A study of Homo sapiens with 12 samples.

Results

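Claudins are the membrane proteins that make the strands of tight junctions, the seals between neighbouring epithelial cells. Some of them close the space between the cells, and others form pores that let chosen ions and water through, so the mix of claudins sets how tight an epithelium is. In the colon the tight junction sits at the apical end of the lateral membrane, where claudins are joined by occludin-like MARVEL proteins, adhesion molecules of the JAM and CXADR type, and cytoplasmic scaffolds.

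The claudin genes described here are CLDN12, CLDN2, CLDN1, CLDN3, CLDN4 and CLDN7, as measured in HT29, a human colorectal cancer cell line with mutant p53. Cells grown in culture were transfected with an siRNA against luciferase (siLUC, the non-targeting control) or with siLRH-1 #1 or siLRH-1 #2, both directed at the nuclear receptor LRH-1 (gene NR5A2). Each siRNA was used at 5 nM for 24 h with the same transfection reagent, and no untransfected cells were among the arrays. Each group held 4 arrays of Illumina HumanHT-12 BeadChips, described by the sources as biological replicates of a single cell line. The members were every probe of the value table whose gene symbol is 1 of these claudins, which gave 6 probes (1 for each gene) of 16381 probes, and 6 genes of 7331 named genes. The genes were chosen by their measured differences between these same groups, so their values are given as a description and without p-values. Calls made for them in the fit over all probes are counted once, beside the share of all genes. Where another setting changes a call, the gene is named without that share. Nothing is read from any of these calls. NR5A2 itself was not among the named probes of the values used here, so its level is not given.

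Values are the authors' quantile-normalized log2 signals of single probes, with array medians between 6.56 and 6.57. Probes differ in how they bind, so the level of 1 gene is not set against that of another. In the gene lists, a gene is counted as measured where a probe carries its symbol. As 6621 probes had no symbol, genes not counted may still have been read by an unnamed probe. Of 11 markers of colon epithelium 9 were measured, all with a mean above the array medians, from 6.92 (CDX2) and 7.46 (CEACAM5) to 12.5 (KRT8) and 13.4 (EPCAM). Of 12 mesenchymal and blood cell markers 3 were measured, with COL1A2 (5.98) and DCN (6.22) below the array medians and CD68 (7.65) above them. None of these 3 was called between groups, where called means an adjusted p under 0.05 in limma, a linear model fitted to all probes. CD68 came closest, at -0.21 between the siRNAs (adjusted p = 0.0521), and was called in some other settings. The array siLRH-1 #2 replicate 2 stood apart, with 50 probes at least 0.5 above every other array, against at most 1 probe in each of the others. Results that rest on it are also given without it.

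LRH-1 binds DNA as a monomer at a short extended recognition site. The promoters of the claudins with the largest differences are shown because these are the stretches next to the transcription start where such a site could be sought. They are the 250 bases before the RefSeq start (build GRCh38.p14), written 5′ to 3′ on the gene's strand in lower case. A match to CAAGGNCA, or its reverse complement TGNCCTTG, is in capitals, where N is any base. The consensus given in the study differs from these letters. It has a pyrimidine before them, a pyrimidine at N and either purine at the last A. Matches and shares given here are for the letters searched only.
CLDN12, chr7:90403211-90403460, plus strand: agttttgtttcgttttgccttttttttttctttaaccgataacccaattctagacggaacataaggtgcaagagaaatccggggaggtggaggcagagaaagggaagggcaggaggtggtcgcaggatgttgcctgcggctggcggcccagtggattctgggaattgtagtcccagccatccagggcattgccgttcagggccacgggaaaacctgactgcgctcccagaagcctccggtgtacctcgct
CLDN2, chrX:106899914-106900163, plus strand: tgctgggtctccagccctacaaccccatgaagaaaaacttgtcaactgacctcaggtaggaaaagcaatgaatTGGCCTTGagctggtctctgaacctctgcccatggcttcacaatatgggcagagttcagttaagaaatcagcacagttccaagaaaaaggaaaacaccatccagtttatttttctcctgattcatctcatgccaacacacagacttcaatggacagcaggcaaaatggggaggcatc
Both strands were searched, and all 6 genes matched the promoter table, with 8 start windows because CLDN2 and CLDN7 had more than 1. The letters were found in 1 of the 8, the CLDN2 window shown, on the minus strand, and they begin 177 bases before the start. They were not found in the CLDN12 window, in the other CLDN2 window or in those of CLDN1, CLDN3, CLDN4 and CLDN7. Of all RefSeq promoters supplied for comparison, 4.51% (1582 of 35116) hold the same letters, and among those of genes with a named probe 3.78% (318 of 8420). A match describes the letters only, and binding was not measured on these arrays.

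CLDN12 and CLDN2, which are both linked to the passage of ions through tight junctions, had the largest differences among the 6 claudins, and they followed different patterns. CLDN12 was higher with both LRH-1 siRNAs, whereas CLDN2 was lower with siLRH-1 #2 only. CLDN12, a claudin tied to calcium permeability of the intestine in mice, was read by probe ILMN_1787657. The log2 signal of CLDN12 was 7.78, 7.84, 7.85 and 7.61 on the siLUC arrays 1 to 4. With siLRH-1 #1 it was 8.97, 8.86, 8.81 and 9.003. With siLRH-1 #2 it was 9.28, 9.20, 9.38 and 9.27. No array of any group overlapped with those of another, and the order was siLUC, then siLRH-1 #1, then siLRH-1 #2. The difference from siLUC was 1.14 on the log2 scale with siLRH-1 #1 (2.21-fold) and 1.51 with siLRH-1 #2 (2.86-fold), each with a standard error (SE) of 0.07. Between the siRNAs it was -0.37 (siLRH-1 #1 minus siLRH-1 #2). Leaving out each array in turn kept the first difference between 1.09 and 1.18 and the second between 1.46 and 1.54. Of 7331 named genes, CLDN12 ranked 1 from the top in both comparisons with siLUC. The rank is a description only, because such differences chose the gene.

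CLDN2, which forms cation and water pores and makes epithelia leaky, was read by probe ILMN_1795190. The siLUC arrays read 11.54, 11.63, 11.57 and 11.44 on the log2 scale, and the siLRH-1 #1 arrays read 11.57, 11.71, 11.54 and 11.71. These groups overlapped, and their means differed by 0.09 with a 95% interval from -0.06 to 0.23. On the siLRH-1 #2 arrays the log2 signal was 10.44, 10.70, 10.69 and 10.56, below every array of the other groups. The difference from siLUC was -0.95 (SE 0.07, 1.93-fold lower), and siLRH-1 #1 was higher than siLRH-1 #2 by 1.03. Leaving out each array in turn gave -0.98 to -0.89 for siLRH-1 #2 minus siLUC. CLDN2 ranked 6 from the bottom of the named genes for siLRH-1 #2 minus siLUC and 5 from the top for siLRH-1 #1 minus siLRH-1 #2. As for CLDN12, these ranks are a description only.

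**Figure D1:**
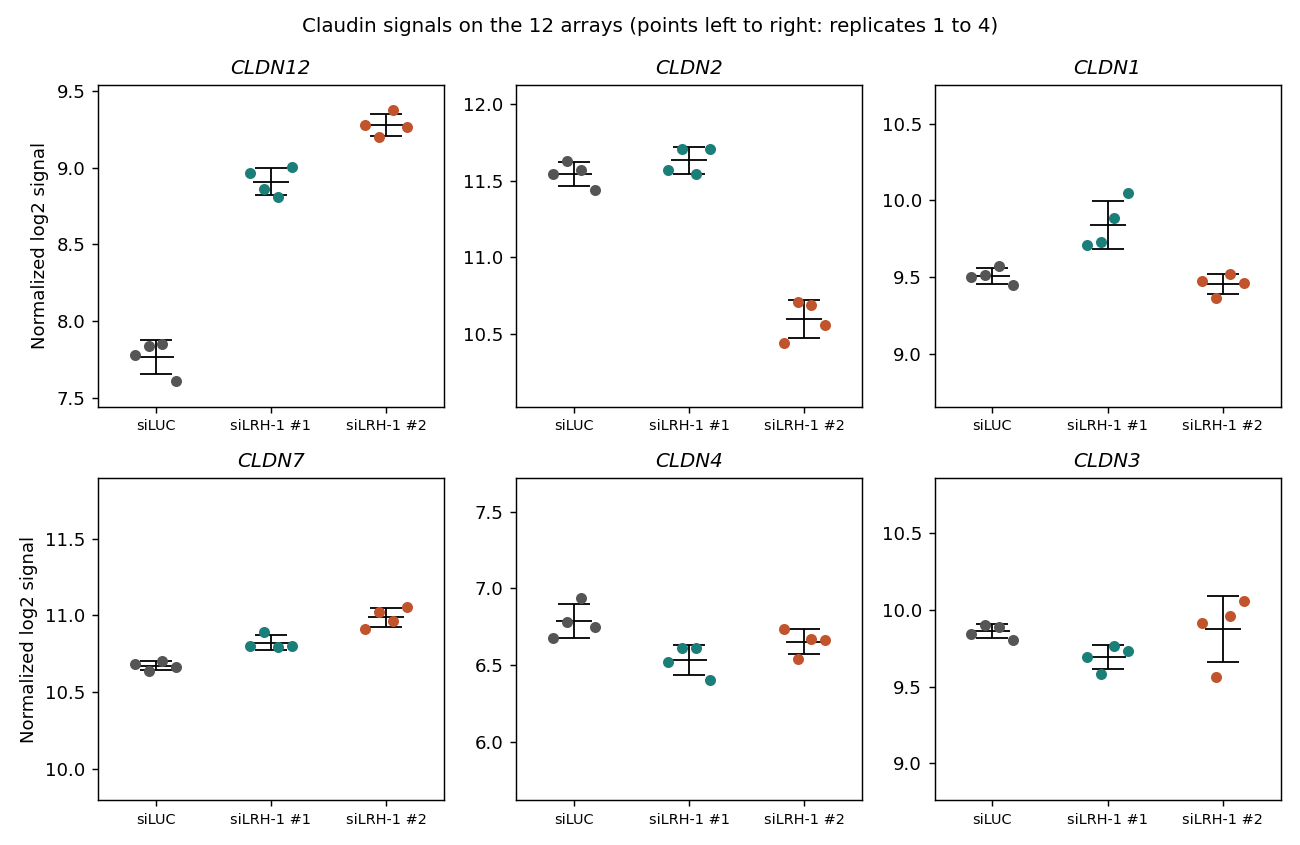
Normalized log2 signal (y axis, the same span in each panel, not starting at 0) of 6 claudins by siRNA group. Points are the 4 arrays of a group in the order of their replicate numbers, and lines are the mean ± SD. CLDN12 rises above siLUC with both siRNAs, CLDN2 lies below siLUC with siLRH-1 #2 alone, and CLDN3 has 1 low siLRH-1 #2 array at 9.56.

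The sealing claudins had smaller differences. CLDN1, which is needed for the barrier of the skin and also seals colon epithelium, was read by probe ILMN_1724686. Log2 signals were 9.50, 9.51, 9.57 and 9.45 with siLUC and 9.71, 9.72, 9.89 and 10.05 with siLRH-1 #1. With siLRH-1 #2 they were 9.47, 9.36, 9.52 and 9.46. The siLRH-1 #1 arrays lay above those of both other groups, which overlapped with each other. The difference from siLUC was 0.33 with siLRH-1 #1 (SE 0.07), while that with siLRH-1 #2 was -0.05 with a 95% interval from -0.20 to 0.09. Between the siRNAs the difference was 0.39. The spread of CLDN1 was widest with siLRH-1 #1 (SD 0.16, against 0.05 with siLUC and 0.07 with siLRH-1 #2, n = 4 each).

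CLDN7, a claudin found along the lateral membrane that binds the adhesion molecule EPCAM, was read by probe ILMN_2143685. The log2 signals were 10.68, 10.64, 10.71 and 10.66 with siLUC, 10.80, 10.89, 10.79 and 10.80 with siLRH-1 #1, and 10.91, 11.02, 10.96 and 11.05 with siLRH-1 #2. As for CLDN12, the 3 groups did not overlap and stood in the same order. The steps were smaller, at 0.15 (SE 0.06) for siLRH-1 #1 and 0.31 (SE 0.06) for siLRH-1 #2 against siLUC, and -0.16 between the siRNAs. EPCAM itself, the partner of CLDN7, differed from siLUC by -0.01 with siLRH-1 #1 (limma adjusted p = 0.968) and by -0.03 with siLRH-1 #2 (adjusted p = 0.88).

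CLDN3 and CLDN4, close relatives that are neighbours in RefSeq gene order on chromosome 7, both seal the space between cells. CLDN4 was read by probe ILMN_2132458, near the array medians. Its log2 signal was 6.67, 6.78, 6.94 and 6.75 with siLUC, 6.52, 6.61, 6.61 and 6.40 with siLRH-1 #1, and 6.74, 6.54, 6.67 and 6.66 with siLRH-1 #2. The siLRH-1 #1 arrays lay below the siLUC arrays, and the siLRH-1 #2 arrays overlapped with both groups. For siLRH-1 #1 the difference from siLUC was -0.25 (SE 0.07), and for siLRH-1 #2 it was -0.13 with a 95% interval from -0.28 to 0.01. The first ranged from -0.29 to -0.20 when each array was left out. It was smallest without siLUC replicate 3 (-0.20) and without siLRH-1 #1 replicate 4 (-0.21).

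CLDN3 was read by probe ILMN_1723042. Its log2 signal was 9.84, 9.90, 9.89 and 9.80 with siLUC and 9.69, 9.58, 9.76 and 9.74 with siLRH-1 #1. With siLRH-1 #2 it was 9.91, 9.56, 9.96 and 10.06. The siLRH-1 #1 arrays lay below those of siLUC, and the siLRH-1 #2 arrays spread across both groups, with the second array, the one that stood apart, as the lowest of all. The differences from siLUC were -0.17 (SE 0.08) with siLRH-1 #1 and 0.01 with siLRH-1 #2 (95% interval -0.15 to 0.18). Between the siRNAs the difference was -0.18, and without siLRH-1 #2 replicate 2 it was -0.28. Without that array the siLRH-1 #2 differences from siLUC were 1.54 for CLDN12, -0.98 for CLDN2 and 0.30 for CLDN7.

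**Figure D2:**
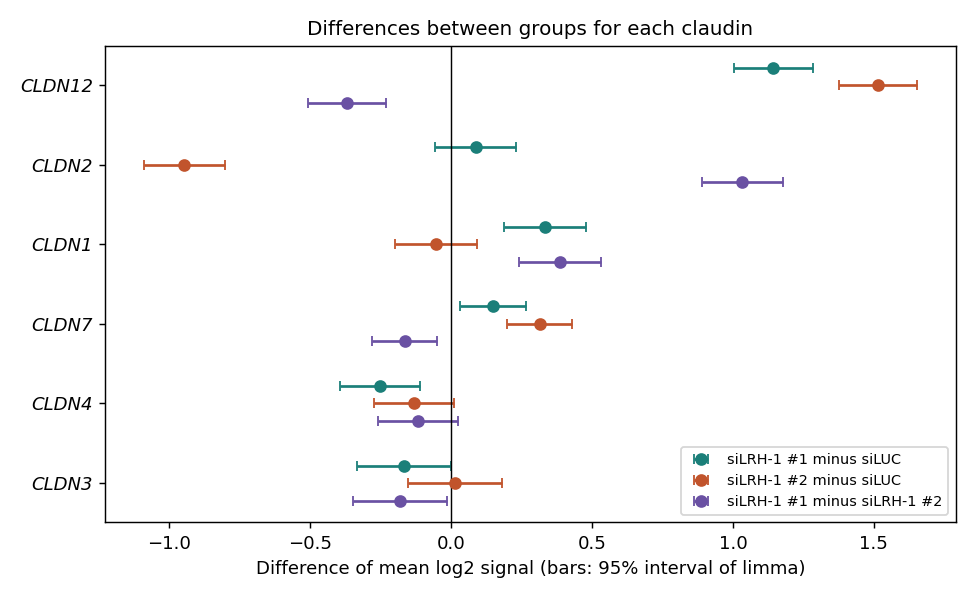
Differences of mean log2 signal (x axis) between groups for each claudin (y axis), with 95% intervals from limma as bars. Green marks siLRH-1 #1 minus siLUC, orange siLRH-1 #2 minus siLUC and purple siLRH-1 #1 minus siLRH-1 #2. The differences of CLDN12 from siLUC have the same sign with both siRNAs, whereas those of CLDN2 and CLDN1 are much smaller with 1 siRNA than with the other. The bars show precision and are not read as tests, because such differences chose the genes.

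Both comparisons with siLUC use the same 4 control arrays, so the siRNAs' values are set side by side and not counted as separate support. With siLRH-1 #1 against siLUC, 2 were called higher (CLDN12 and CLDN1), where 5.05% of all named genes were called higher, and 1 lower (CLDN4), where 5.17% were. With siLRH-1 #2 against siLUC, 2 were called higher (CLDN12 and CLDN7; 5.14% of all) and 1 lower (CLDN2; 4.88%). With siLRH-1 #1 against siLRH-1 #2, 2 were higher (CLDN2 and CLDN1; 6.97%) and 1 lower (CLDN12; 7.73%). The arrays did not overlap for 5 of the 6 with siLRH-1 #1 against siLUC (18.6% of all named genes), for 3 with siLRH-1 #2 (17.8%) and for 4 between the siRNAs (20.4%). The call of CLDN4 did not hold when replicate 2 (-0.25) or 3 (-0.20) of siLUC, or replicate 1 (-0.25) or 4 (-0.21) of siLRH-1 #1, was left out, and CLDN3 was called between the siRNAs without siLRH-1 #2 replicate 2 (-0.28). Nothing is read from these counts, because the same differences chose the genes. The median difference of the 6 was 0.12, -0.02 and -0.14 in the 3 comparisons, and that of all named genes 0.01, 0.01 and -0.01.

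The 6 claudins did not move as a block. Over the 12 arrays, which include the group differences, Pearson's r was 0.89 between CLDN12 and CLDN7, -0.77 between CLDN2 and CLDN7 and -0.61 between CLDN12 and CLDN2. With each group's mean removed, the same pairs, in that order, had r of -0.21, 0.38 and 0.41, each of the opposite sign. All pairs then ranged from -0.33 (CLDN2 and CLDN3) to 0.53 (CLDN1 and CLDN3). These values share their arrays and are a description.

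The other claudins are listed beside these 6. Because the 6 were chosen by their differences, smaller differences among the rest follow in part from that choice. Of 17 others listed, 13 had a named probe, and 10 of these lay below a log2 signal of 6.5 on average (5.95 to 6.41), under the array medians. Brighter were CLDN23 (8.82), CLDN14 (7.76) and CLDN15 (7.10). Against siLUC, 0 of the 13 were called in limma with either siRNA, with 2 at an unadjusted p under 0.05 in each comparison. Of all named genes, 5.05% were called higher and 5.17% lower with siLRH-1 #1, and 5.14% and 4.88% with siLRH-1 #2. The differences of the 13 lay between -0.17 and 0.11 with siLRH-1 #1 and between -0.15 and 0.15 with siLRH-1 #2. Between the siRNAs, 2 were called, both on the side of siLRH-1 #1, where 6.97% of all named genes were called. CLDN15, a pore-forming claudin of the intestine, differed by 0.18 (SE 0.06, adjusted p = 0.0408), and CLDN18, the claudin of stomach and lung, by 0.18 (SE 0.06, adjusted p = 0.0435) at a mean signal of 6.12. Both calls were lost without any 1 of several arrays, among them siLRH-1 #2 replicate 2 (adjusted p = 0.0601 and 0.107).

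**Figure D3:**
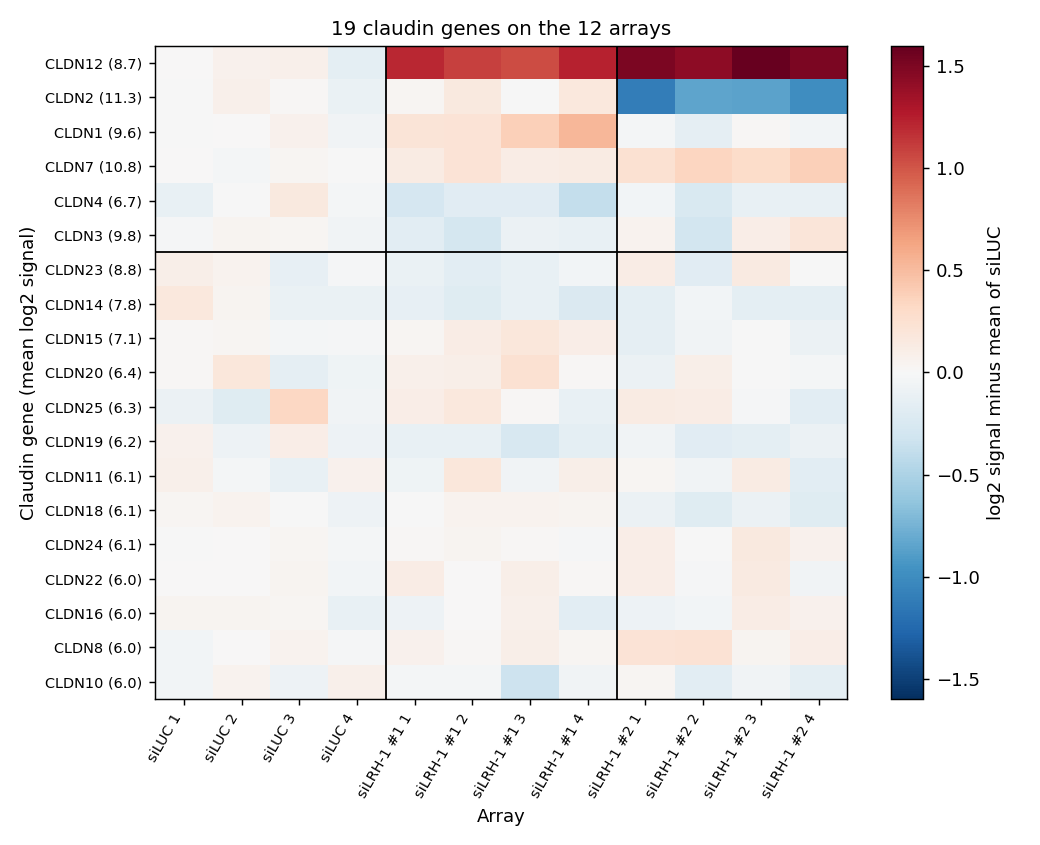
Log2 signal minus the gene's mean over the siLUC arrays (colour, red above and blue below) for 19 claudin genes (rows, mean log2 signal in brackets) on the 12 arrays (columns, black lines between groups). The 6 claudins described here are above the horizontal line, with the strongest colours in CLDN12 and CLDN2, and the 13 others below it have differences within 0.2 of siLUC on group average.

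Among the other membrane proteins of tight junctions, 6 of 12 listed were measured, and 1 was called higher with each siRNA and 0 lower. Of all named genes, 5.05% were called higher and 5.17% lower with siLRH-1 #1, and 5.14% and 4.88% with siLRH-1 #2. Between the siRNAs the shares were 6.97% and 7.73%. These shares also stand beside the counts of the lists below. The lists are short, so nothing is read from their counts. The membrane protein called with each siRNA was CXADR, the coxsackievirus and adenovirus receptor and a homophilic adhesion molecule. The mean log2 signal of the 4 siLUC arrays was 9.34 ± 0.03 (SD), that of the siLRH-1 #1 arrays 9.66 ± 0.09 and that of the siLRH-1 #2 arrays 9.60 ± 0.03. CXADR rose by 0.32 (SE 0.06, adjusted p = 0.000853 in limma) and by 0.26 (adjusted p = 0.00699), with no overlap with the siLUC arrays. The difference between the siRNAs was 0.06 (adjusted p = 0.588). ILDR1, an angulin of the corners where 3 cells meet, was lower on the siLRH-1 #1 arrays than on those of siLRH-1 #2 by 0.23 (adjusted p = 0.0319), although the arrays overlapped, and the call was lost without any of 6 arrays (adjusted p = 0.065 to 0.107). MARVELD2, which encodes tricellulin of the same corners, had a difference of 0.21 between the siRNAs by its brighter probe (adjusted p = 0.127) and 0.30 by its other probe (adjusted p = 0.022). MARVELD3 differed between the siRNAs by -0.08 by its brightest probe (adjusted p = 0.479). A dimmer probe of MARVELD3 gave 0.23 (adjusted p = 0.0294), although the arrays overlapped, and its remaining probe was not called. OCLN was not analysed here.

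Of the scaffold and polarity proteins, 8 of 27 listed were measured. Against siLUC, 1 was called higher with each siRNA, where 5.05% and 5.14% of all named genes were. PALS1, the scaffold of the Crumbs polarity complex, rose by 0.30 with siLRH-1 #1 (SE 0.07, adjusted p = 0.00855) and differed from siLUC by 0.00 with siLRH-1 #2 (adjusted p = 0.991). The siRNAs differed by 0.30 (adjusted p = 0.00636). Without siLRH-1 #1 replicate 4, which was also the highest array of CLDN1, the PALS1 difference from siLUC was 0.24 (adjusted p = 0.0524). CRB3, the apical Crumbs protein that binds PALS1, rose by 0.30 with siLRH-1 #2 (SE 0.07, adjusted p = 0.00588) and by 0.26 and 0.29 by its other probes (adjusted p = 0.0128 and 0.0356). With siLRH-1 #1 its brightest probe differed by 0.18 (adjusted p = 0.129), with 0.24 by a dim probe (adjusted p = 0.0198). TJP1 was not analysed here.

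Of the proteins that bind or process claudins, 2 of 10 listed were measured (EPCAM and CD9), and 0 were called. CD9, a tetraspanin that binds CLDN1, differed from siLUC by 0.03 with siLRH-1 #1 (adjusted p = 0.869) and 0.10 with siLRH-1 #2 (adjusted p = 0.325). Of transcription factors known to act on claudin genes, 6 of 18 were measured. KLF4, a zinc finger factor of differentiated colon epithelium, rose by 0.30 with siLRH-1 #1 (SE 0.07, adjusted p = 0.0146) and differed by 0.06 with siLRH-1 #2 (adjusted p = 0.743). The siRNAs differed by 0.24 (adjusted p = 0.0414), a call that did not hold without any of 6 arrays (adjusted p = 0.0508 to 0.176). The KLF4 call against siLUC did not hold when siLRH-1 #1 replicate 4 (0.25, adjusted p = 0.0803), siLUC replicate 2 (0.27, adjusted p = 0.0529) or siLUC replicate 3 (0.26, adjusted p = 0.0553) was left out, while its other probe gave 0.31 (adjusted p = 0.00275). ELF3, an epithelial ETS factor, fell by 0.23 with siLRH-1 #1 (SE 0.06, adjusted p = 0.0189) and by 0.20 with siLRH-1 #2 (adjusted p = 0.0392). Without siLUC replicate 4 its differences were -0.19 (adjusted p = 0.0827) and -0.17 (adjusted p = 0.128), with siLRH-1 #1 replicate 2 left out the first was also not called (adjusted p = 0.0544), nor was the second without any of 5 other arrays. CDX2, an intestinal homeodomain factor that acts on CLDN2, differed by 0.11 and 0.05 (adjusted p = 0.401 and 0.729), and HNF4A was not analysed here.

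The junctions below the tight junction were measured by 10 of 21 listed genes of adherens junctions and desmosomes. By the brightest probe of each gene 1 was called, where 5.14% of all named genes were called higher with siLRH-1 #2. DSG2, a desmosomal cadherin, rose by 0.21 with siLRH-1 #2 (SE 0.06, adjusted p = 0.0304). This call did not hold when replicate 1 or 2 of siLUC, or replicate 1 or 4 of siLRH-1 #2, was left out (0.18 to 0.21, adjusted p = 0.0617 to 0.104). By its brighter probe DSG2 differed by 0.07 with siLRH-1 #1 (adjusted p = 0.576), and by its other probe the differences were 0.21 and 0.22 (adjusted p = 0.0351 and 0.0278). CDH1, which encodes E-cadherin, differed from siLUC by -0.02 and 0.03 (adjusted p = 0.897 and 0.879). CTNND1 differed between the siRNAs by -0.045 by its brightest probe (adjusted p = 0.766). A dimmer probe of CTNND1 gave -0.20 (adjusted p = 0.0358), and its remaining probes were not called. Of the 9 colon epithelial markers measured, 1 was called lower with each siRNA, where 5.17% and 4.88% of all named genes were. CEACAM5, a surface glycoprotein, fell by 0.22 with each siRNA (adjusted p = 0.0376 and 0.0352), and each call was lost without any of 6 arrays (adjusted p = 0.0549 to 0.165).

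**Figure D4:**
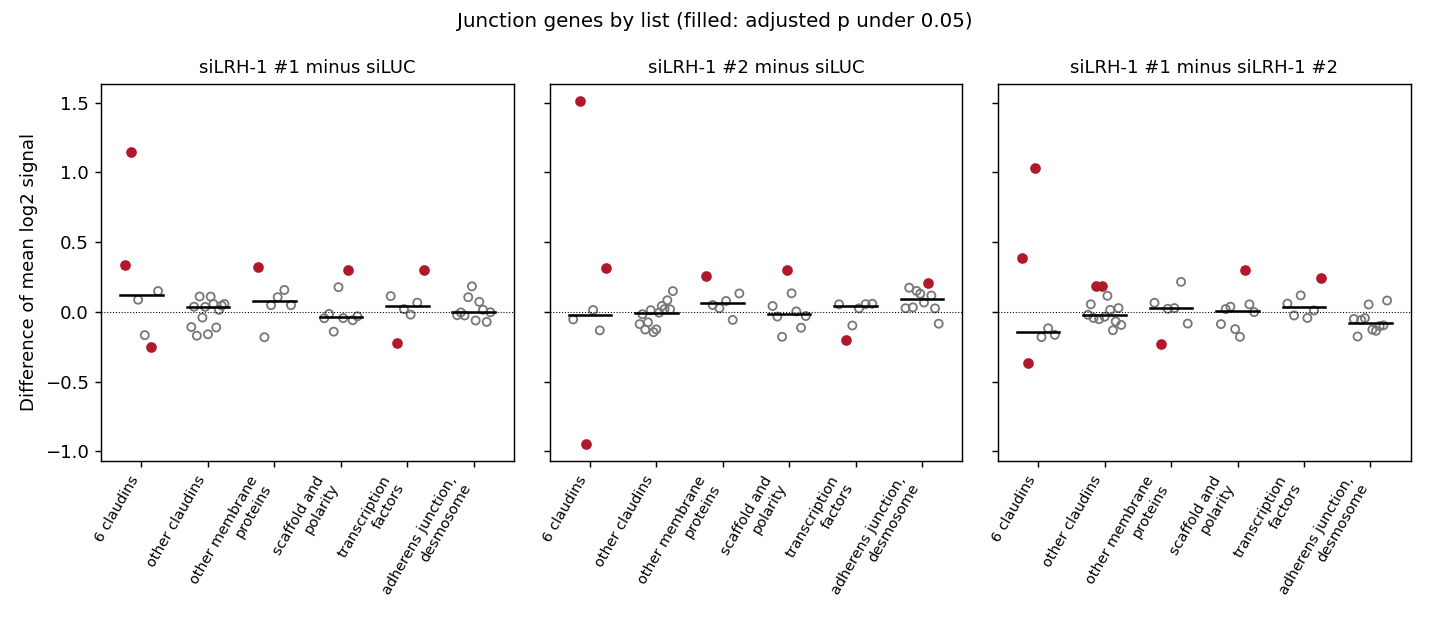
Difference of mean log2 signal (y axis) of each measured gene by list (x axis) in the 3 comparisons, with the list's median as a black line. Filled points have an adjusted p under 0.05, open points do not, and outside the 6 claudins every difference lies between -0.24 and 0.33.

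The named genes whose log2 signals ran closest to those of CLDN12 over the 12 arrays, by Pearson's r, were GULP1, an engulfment adaptor (r = 0.99), ERO1A, an oxidase of the endoplasmic reticulum (0.97), DCP2, an mRNA decapping enzyme (0.96), MEGF9 (0.96) and ASAH2B (0.96). Against siLUC, DCP2 was higher by 0.51 with siLRH-1 #1 and by 0.78 with siLRH-1 #2, and MEGF9 by 0.32 and 0.47. Most opposed were DERL2 (r = -0.98), B4GALT3, a galactosyltransferase (-0.97), EMP1, an epithelial membrane protein (-0.95), INF2, a formin (-0.94), and WBP1L (-0.94). B4GALT3 was lower by 0.33 and 0.41 with the 2 siRNAs, and EMP1 by 0.34 and 0.48.

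Closest to CLDN2 were CFDP1 (r = 0.99), M6PR, the cation-dependent mannose 6-phosphate receptor (0.98), ATXN1L (0.98), PROSER1 (0.98) and GNA12, a G protein subunit (0.98). M6PR differed from siLUC by 0.08 with siLRH-1 #1 and by -0.83 with siLRH-1 #2, and GNA12 by 0.17 and -0.79. Most opposed were AMER1, a regulator of Wnt signalling (r = -0.98), SHTN1 (-0.98), CBFB (-0.98), KIF11, a mitotic kinesin (-0.97), and AP1S2 (-0.97). AMER1 differed by -0.12 and 0.46, and SHTN1 by -0.06 and 0.41. These genes were picked by their likeness over the same arrays, the correlation is set mainly by the group differences, and n is 12 arrays.

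**Figure D5:**
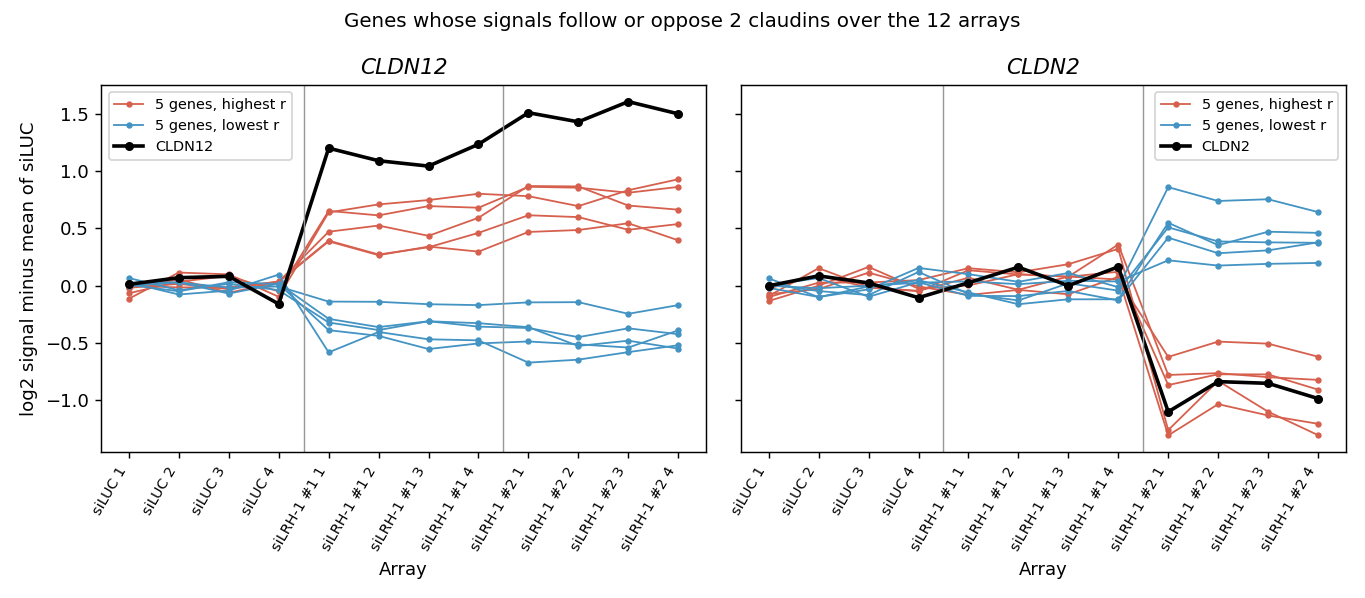
Log2 signal minus the mean of the siLUC arrays (y axis) on the 12 arrays (x axis, grey lines between groups, lines between points as a guide only) for CLDN12 and CLDN2 (black) with the 5 named genes of highest (red) and lowest (blue) Pearson's r. The red genes of CLDN12 step up with both siRNAs, and those of CLDN2 step down with siLRH-1 #2 alone.

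Genes beside the claudins were compared to see whether a difference extended along the chromosome. Taking the nearest 2 named genes on each side in RefSeq order, those beside CLDN12 were CFAP69 and GTPBP10 on 1 side and FZD1 and MTERF1 on the other. CFAP69 was lower with siLRH-1 #1 by 0.24 (adjusted p = 0.0125) at a dim mean signal of 6.02, and the others differed from siLUC by -0.13 to -0.04 (adjusted p from 0.404). Beside CLDN2, PWWP3B, RADX, MORC4 and FRMPD3 were not called in any comparison, with MORC4 at 0.13 with siLRH-1 #1 (adjusted p = 0.24) and 0.01 with siLRH-1 #2 (adjusted p = 0.977). Beside CLDN1, P3H2, CLDN16, IL1RAP and GMNC were not called. Beside CLDN3 and CLDN4, ABHD11 differed by -0.21 with siLRH-1 #1 (adjusted p = 0.0574), DNAJC30 by -0.19 with siLRH-1 #2 (adjusted p = 0.0762) and by 0.19 between the siRNAs (adjusted p = 0.0626), with no overlap of arrays in either, and ELN and EIF4H were not called. Beside CLDN7, CTDNEP1, a nuclear envelope phosphatase, was lower with siLRH-1 #1 by 0.32 (adjusted p = 0.000987) and differed by 0.04 with siLRH-1 #2 (adjusted p = 0.788), while ELP5, EIF5A and GPS2 were not called.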

How the data were processed

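Per the study's methods, bead images were read in GenomeStudio, probes with a detection p over 0.05 in every sample were removed, and signals were log2-transformed and quantile-normalized in Partek. The sources used here give no versions. The deposited log2 values were used as they stand. Another table had 24 columns that matched no sample label and was not used. Of 16381 probes, 9756 had 1 gene symbol in the platform annotation, 4 had several and 6621 had none. For the 1869 genes with several probes, the brightest was used. Differences were fitted with limma 3.58.1 in R 4.3.3 (a mean for each of 3 groups, eBayes, 9 residual and 12.1 prior degrees of freedom), with two-sided p-values adjusted by Benjamini-Hochberg over all probes, after tests on simulated data. The number of arrays limits the precision, and where replicates were not separate cultures, p-values measure only the spread between arrays. The claudins and the gene lists were chosen with earlier results of these data known. Named were the 6 claudins, called genes of each list (at most 8), TJP1, OCLN, EPCAM, CDX2, HNF4A and CDH1 where measured, and the 5 genes with the highest and the lowest r to CLDN12 and CLDN2. The neighbouring genes were added after values were seen. Alternatives were the replicate block, each array left out, other scalings, filters, variance models and probe averages.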

Additional observations from a re-analysis of the deposited data

Results flagged for a closer look

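CLDN7 had 1 array that stood away from the other 3 in the siLRH-1 #1 group. Replicate 2 was at a log2 signal of 10.89, the others between 10.79 and 10.80, and the gap was 0.921 of the group's range, above Dixon's 95% critical value for 4 values. This was 1 of 18 groups of claudin values checked, and chance marks about 1 in 20. All 4 arrays stayed above the siLUC arrays.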

How the results depend on the processing

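The claudins' log2 differences moved by less than 1 SD in all 144 values from other settings and in all 216 with an array left out. The 216 could not come out otherwise, because leaving out an array moves a group mean by less than this SD. Most of the other settings change the variances or the probes fitted and leave the differences as they are. Only the other scalings and the array weights could move them, and there they stayed within 1 SD. The totals of 144 and 216 are therefore not read as a test of stability. The numbers of calls, which are small, moved in some settings. The share of all named genes called in those settings is not given, so nothing is read from the counts or from changed calls of single claudins. Without moderation of the variances, CLDN4 was no longer called lower with siLRH-1 #1 against siLUC, and CLDN7 was called higher. Between the siRNAs, CLDN7 was called lower without moderation, with an intensity trend and with the dimmest 0.25 of probes left out. It was also called lower there with the mean of a gene's probes. Of the other claudins, 2 were called higher between the siRNAs, 1 with the dimmest 0.25 left out, an intensity trend or array weights, 0 with only the compared groups in the fit, and 0 to 2 with each array left out.

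The labels do not say whether the replicate numbers pair the arrays. With group means removed, 2 of 12 same-number pairs of arrays correlated above 0.1 (-0.151 to 0.204), and the other pairs between groups ranged from -0.222 to 0.276. These values cannot show whether same-number samples came from 1 experiment. With the replicate block, the calls of the 6 claudins did not change. Nothing is read from this, because the same differences chose the genes. With that block, 0 other claudins were called higher between the siRNAs. Of the transcription factors, 0 were lower with siLRH-1 #2 against siLUC and 0 higher between the siRNAs (1 in each case in the reported fit). CEACAM5 was then not called with either siRNA (adjusted p = 0.0575 and 0.0539).

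For the remaining lists the counts were 0 or 1. Without moderation, 0 membrane proteins were lower between the siRNAs, and 0 transcription factors higher with siLRH-1 #1 or between the siRNAs, and CEACAM5 was not called with either siRNA (adjusted p = 0.058 and 0.0533). With only the compared groups, 0 transcription factors were lower with siLRH-1 #2. The mean of a gene's probes gave 1 membrane protein higher between the siRNAs (MARVELD2; 0 otherwise). DSC2 made 1 adherens junction or desmosome gene higher with siLRH-1 #1 (0 otherwise) without moderation, with the dimmest 0.25 left out, an intensity trend or array weights, and the intensity trend made 1 (CTNNA1) lower between the siRNAs. With each array left out, the counts ranged from 0 to 1 for membrane proteins lower between the siRNAs, for transcription factors higher with siLRH-1 #1, lower with either siRNA and higher between the siRNAs, for adherens junction and desmosome genes higher with siLRH-1 #2, and for scaffolds higher with siLRH-1 #1, lower with siLRH-1 #2 and lower between the siRNAs. The cause of these changes was not tested. The probe of CLDN4 lay near the array medians, but calls also changed for brighter probes, such as that of DSG2 (mean log2 signal 11.3). Whether certainty varied with signal was not tested.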
